A study of Mus musculus with 2 samples.

Results

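Mir139 and Mir149 are 2 of the 2202 microRNA genes counted by small RNA sequencing of whole mouse heart. Both lie in an intron of a protein-coding gene. They were chosen by their measured levels and by how differently they behave between the libraries, so those values are given as a description, with no test. The study has 2 libraries of total RNA limited to fragments of microRNA size, each from a heart of a male B6CASTF1/J mouse at 2 months of age. B6CASTF1/J is a first-generation cross of a laboratory strain and a wild-derived strain. The labels name no treatment and no other genotype, and the libraries, called replicate 1 and replicate 2, form 1 group. The sample descriptions number the males differently while the donor label is the same in both, so any spread given here is that between these 2 libraries and may be partly technical.

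A microRNA is made from a hairpin in a longer transcript. The hairpin is cut out in the nucleus, trimmed to a short duplex in the cytoplasm, and 1 arm is loaded onto an Argonaute protein. The seed, bases 2 to 8 of the mature strand, pairs with messenger RNAs and lowers their output. A hairpin in an intron can be released from the transcript of its host gene, or come from a promoter of its own. Pde2a, the host of Mir139, encodes a phosphodiesterase that breaks down the cyclic nucleotides cAMP and cGMP and is stimulated by cGMP. Gpc1, the host of Mir149, encodes glypican-1, a heparan sulfate proteoglycan anchored at the cell surface.

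The mature strands of the pair are shown first, since the seed defines what each can pair with. They are RefSeq sequences of build GRCm38.p6, the assembly also called mm10, written 5′ to 3′ with the seed in capitals. Both genes and all 4 mature strands were matched in that table.
mmu-miR-139-5p: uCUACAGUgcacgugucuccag
mmu-miR-139-3p: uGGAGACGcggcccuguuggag
mmu-miR-149-5p: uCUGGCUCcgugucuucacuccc
mmu-miR-149-3p: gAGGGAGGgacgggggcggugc

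The 5p strands of the pair begin with the same 3 bases and then differ, and the longest stretch they share anywhere is 7 bases. Neither 5p seed occurs in another of the 1738 mature strands in the table, and neither does the seed of miR-139-3p. The seed of miR-149-3p is shared with 3 other mature names, miR-1943-5p, miR-6967-5p and miR-7016-5p. Mir1943 was counted 22 times in replicate 1 and 44 times in replicate 2. The genes of the other two had 0 counts in both libraries, 2 genes for miR-6967 and 1 for Mir7016. The G-rich 3p strand of Mir149 stands near the end of the range of base composition. G made up 15 of its 22 bases, a share of 68.2%, and 99.8% of the mature strands in the table had a lower share. In miR-139-3p, G made up 10 of 22 bases.

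The deposited counts are of whole hairpin genes, so reads of the 5p and 3p arms add up in 1 value and cannot be told apart here. The hairpins are shown with both mature arms in capitals, so that the loop between them can be seen.
Mir139: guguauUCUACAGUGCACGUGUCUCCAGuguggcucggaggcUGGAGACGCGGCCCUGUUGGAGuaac
Mir149: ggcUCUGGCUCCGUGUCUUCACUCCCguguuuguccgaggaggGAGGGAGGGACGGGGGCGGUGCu

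The Mir139 hairpin has 68 bases, of which 58.8% are G or C, and the Mir149 hairpin has 66 bases, of which 68.2% are G or C. Of 1005 mouse hairpins in the table, 77.7% had a lower G and C content than Mir139 and 95.9% a lower one than Mir149. Folded in silico, each hairpin forms 25 base pairs. The predicted folding energy was -35.6 kcal/mol for Mir139 and -36.7 kcal/mol for Mir149. Per base, 87.9% of the hairpins folded less stably than Mir139 and 92.1% less stably than Mir149. The loop between the mature arms has 14 bases in Mir139 and 17 in Mir149, beside a median of 16 over 644 hairpins with both arms annotated. Both loops hold the letters UGU, starting at loop base 1 in Mir139 and at loop base 2 in Mir149. On the RNA strand, which alone was searched, these letters occur in 31.5% of the 644 loops, and in 34.9% of the 289 loops with 14 to 17 bases.

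Reads that map to several places in the genome were counted for no gene, so a sequence with copies elsewhere loses counts. Mir139 shared at most 11 bases with any other microRNA hairpin of the table, on either strand, and Mir149 at most 12. None of the 4 mature strands occurred, in either orientation, in any of 141767 annotated transcripts other than that of its own hairpin. A genome sequence was not used here, so copies outside annotated transcripts were not searched.

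Mir139 (ENSMUSG00000065446.1) lies on the plus strand of chromosome 7 of mm10, from 101475376 to 101475443. Of the 12 annotated transcripts of Pde2a, 10 span it on the same strand, and it lies in an intron of each. In the longest coding transcript this is intron 2, with 29902 bases from 101451469 to 101481370, and the hairpin lies 5927 bases before the next exon. A second annotated coding gene on that strand, Gm45837, also spans it and holds it in its intron 3. Mir149 (ENSMUSG00000065470.1) lies on the plus strand of chromosome 1, from 92850378 to 92850443. Only 1 of the 5 annotated Gpc1 transcripts spans it, the coding one with 9 exons. It lies in intron 1, with 21249 bases from 92832098 to 92853346, and 2903 bases before exon 2. Both hairpins thus sit in a long early intron of the host, nearer to its downstream than to its upstream exon. The messenger RNAs of the hosts were not measured in these libraries.

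**Figure D1:**
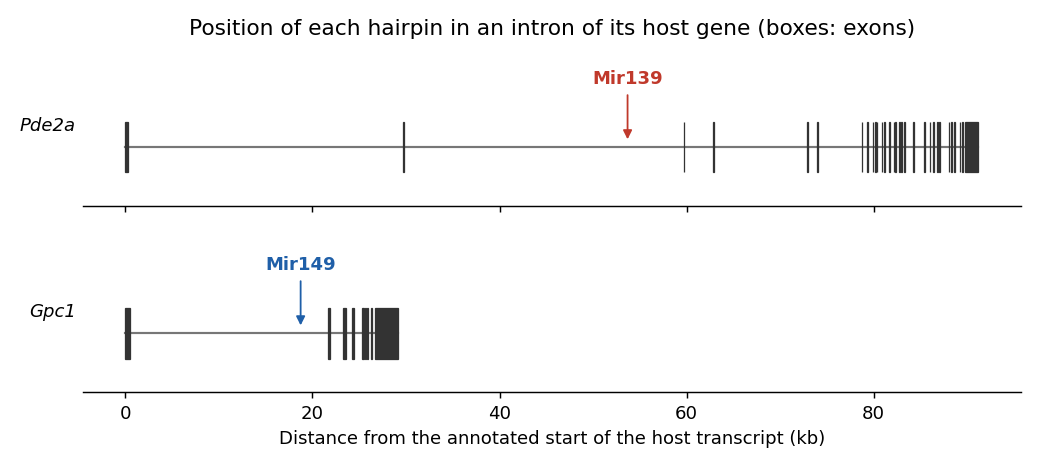
Exons (boxes) and introns (line) of the longest coding Pde2a transcript and of the coding Gpc1 transcript, with distance from the transcript start in kb on the horizontal axis and an arrow at each hairpin. Mir139 lies 53685 bases and Mir149 18733 bases from the start, each in a long intron before the dense exons of the 3′ part.

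Neither gene is part of a microRNA cluster. No other microRNA gene is annotated within 10 kb of either one. The nearest to Mir139 is Gm22655 at 405741 bases, with 0 counts, followed by Mir3102 at 592967 bases, with 645 counts in replicate 1 and 967 in replicate 2. The nearest to Mir149 is Mir6900 at 385836 bases, with 26 and 9 counts.

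Mir139 was among the most abundant microRNA genes of these libraries and nearly the same in both. Its count was 150017 in replicate 1 and 147352 in replicate 2. Divided by the sum of all microRNA gene counts and scaled to 1000000 (CPM), these were 41092 and 38668 CPM, a mean of 39880 CPM ± 1714 (SD, n = 2). It held 4.11% of the counts in replicate 1 (exact Clopper-Pearson 95% limits of 4.09 and 4.13%) and 3.87% in replicate 2 (3.85 and 3.89%). These intervals cover counting error only. Copies of 1 molecule made by PCR were not collapsed, so they may be too narrow even for that. By level it ranked 9 in replicate 1, 11 in replicate 2 and 10 by the mean. All shares and ranks given here rest on reads that map to 1 place. Reads mapped to several places, 48.0% of all reads in replicate 1 and 46.4% in replicate 2, count for no gene. Genes with copies of their mature strand can therefore rank too low beside both members.

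Mir149 was lower than Mir139 in both libraries and far apart between them. Its count was 38026 in replicate 1 and 112397 in replicate 2, or 10416 and 29495 CPM, a mean of 19956 CPM ± 13491 (SD, n = 2). It held 1.04% of the counts in replicate 1 (limits of 1.03 and 1.05%) and 2.95% in replicate 2 (2.93 and 2.97%). Its rank was 18 in replicate 1, 12 in replicate 2 and 14 by the mean. Together the genes held 5.15% of all microRNA gene counts in replicate 1 and 6.82% in replicate 2.

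**Figure D2:**
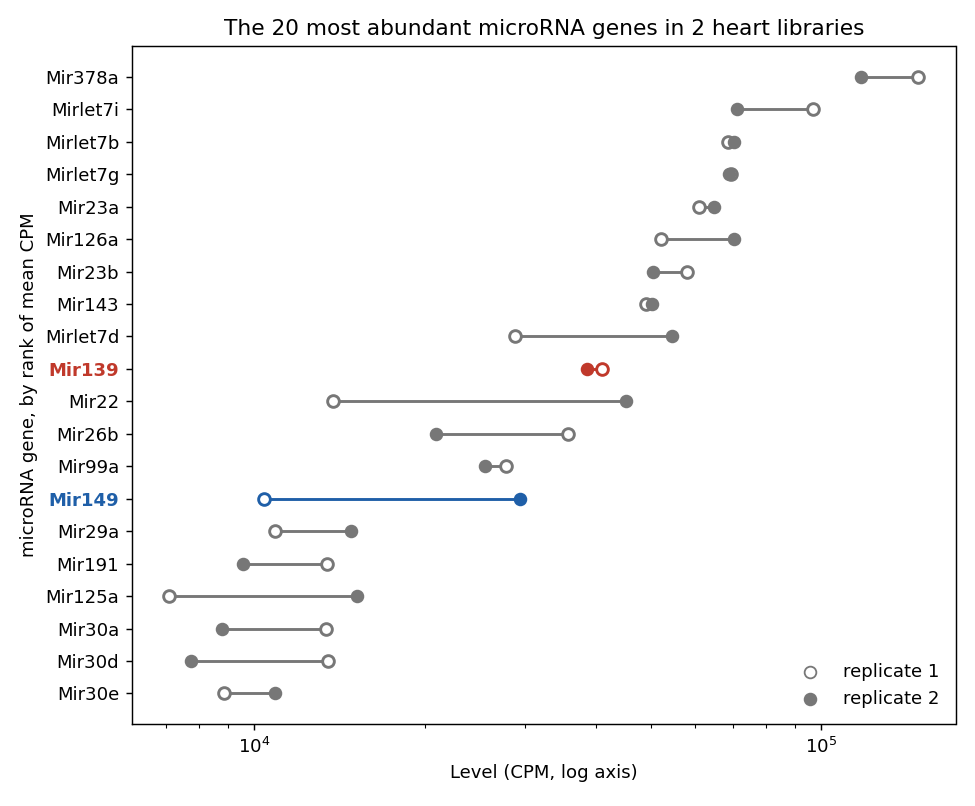
Level in CPM (horizontal log axis) of the 20 most abundant microRNA genes, ordered by mean, in replicate 1 (open circles) and replicate 2 (filled circles). The circles of Mir139 (red) nearly coincide at 41092 and 38668 CPM, while those of Mir149 (blue) stand at 10416 and 29495 CPM.

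The steadiness of Mir139 and the spread of Mir149 can be set against each other on the scale of the coefficient of variation, the SD as a percentage of the mean. It was 4.30% for Mir139 and 67.6% for Mir149 (n = 2). Counting alone would give 0.258% and 0.261% for Mir139 in replicates 1 and 2, and 0.513% and 0.298% for Mir149. Over the 337 detected genes, those with at least 2 CPM in each library, the coefficient had a median of 22.8%, and over the 20 most abundant it ran from 0.780% to 75.4%.

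As a log2 ratio of CPM + 0.5 in replicate 2 over replicate 1, Mir139 was at -0.09 and Mir149 at 1.50, which is 2.83 times higher in replicate 2. The exact counting intervals were -0.10 to -0.08 and 1.48 to 1.52. Of the 337 detected genes, 65 (19.3%) differed by more than 2 times between the libraries, 35 of them (10.4%) higher in replicate 2 and 30 (8.90%) higher in replicate 1. Mir149 is 1 of the 35 and Mir139 is in neither group. The difference was known when these genes were picked, so nothing is read from this count. The median size of the log2 ratio over the detected genes was 0.44. It was larger than that of Mir149 in 20 genes and smaller than that of Mir139 in 38 genes. Among the 20 most abundant genes, Mir22 alone had a larger ratio than Mir149, and 4 had a smaller one than Mir139. With 1 group of 2 libraries, no test of conditions is possible.

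**Figure D3:**
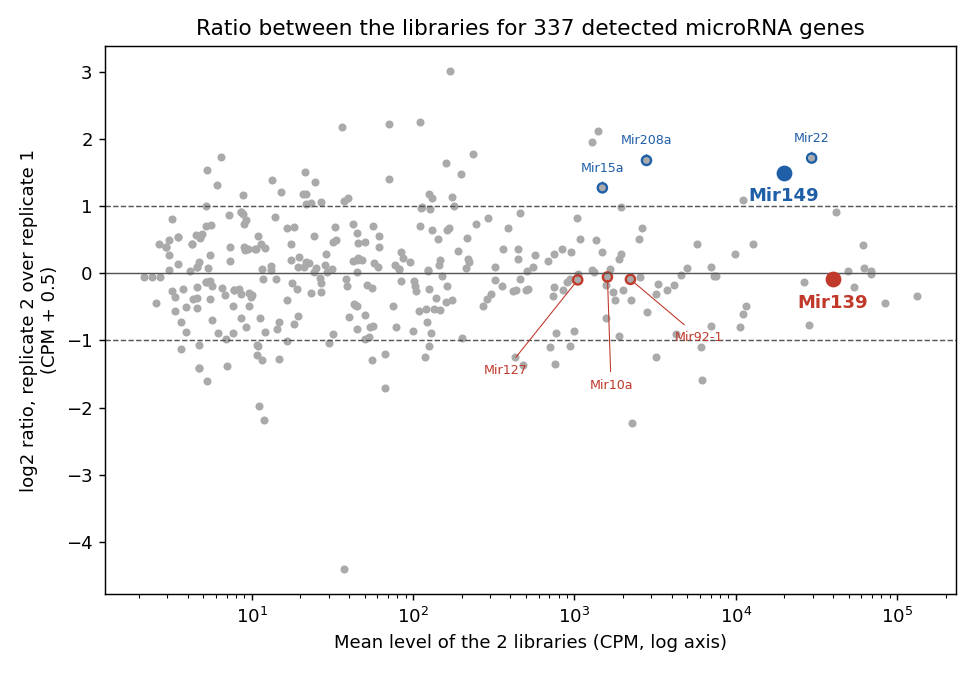
log2 ratio of replicate 2 over replicate 1 (vertical axis) against mean CPM (horizontal log axis) for 337 detected genes (grey points), with dashed lines at a 2-fold difference. Mir139 (red) lies at -0.09 and Mir149 (blue) at 1.50; open circles in the same colours mark the 3 abundant genes nearest to each in ratio.

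Among the 65 detected genes with a mean of at least 1000 CPM, those nearest to Mir139 in this ratio were Mir92-1 at -0.09, Mir127 at -0.10 and Mir10a at -0.05. Their levels were 2225, 1049 and 1602 CPM, far below that of Mir139. Nearest to Mir149 were Mir208a at 1.68, Mir22 at 1.72 and Mir15a at 1.27. Mir208a, hosted by the heart myosin gene Myh6, was at 1329 and 4265 CPM in replicates 1 and 2. Mir22 was at 13785 and 45317 CPM, and Mir15a at 872 and 2109 CPM. This likeness rests on 2 libraries, and is a single ratio per gene.

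In the order of mean levels, Mir23b at 54223 CPM, Mir143 at 49706 CPM and Mirlet7d at 41777 CPM stood just above Mir139. Mir23b and Mir143 exceeded Mir139 in both libraries, and by more than the SD of either gene. Mirlet7d did not, with 28904 and 54650 CPM in replicates 1 and 2, below Mir139 in the first and above it in the second. Just below Mir139 came Mir22 at 29551 CPM, Mir26b at 28348 CPM and Mir99a at 26642 CPM. Mir22 also traded places with Mir139 between the libraries, while Mir26b and Mir99a were below it in both.

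Those same genes, Mir22, Mir26b and Mir99a, stood just above Mir149, and Mir29a at 12872 CPM, Mir191 at 11511 CPM and Mir125a at 11159 CPM just below. All 6 gaps in mean level were smaller than the SD of Mir149, so its place between them is not resolved. In both libraries Mir149 was below Mir22 and above Mir125a. Mir26b and Mir99a exceeded it in replicate 1 and fell short of it in replicate 2. Mir29a and Mir191 also exceeded it in replicate 1, at 10919 and 13457 CPM, and were at 14824 and 9565 CPM in replicate 2. Levels of different genes are compared as counts, with no correction for how efficiently library preparation recovers each mature strand.

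Within a library, the ratio of the pair needs no scaling between libraries. Mir139 exceeded Mir149 by 3.95 times in replicate 1 and by 1.31 times in replicate 2. The log2 ratio of Mir149 over Mir139 was -1.98 in replicate 1 and -0.39 in replicate 2, a mean of -1.19 ± 1.12 (SD, n = 2). Mir149 made up 20.2% of the counts of the pair in replicate 1 (exact Clopper-Pearson 95% limits of 20.0 and 20.4%) and 43.3% in replicate 2 (43.1 and 43.5%). The order of the pair was the same in both libraries, and its size was not.

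The library totals hold the members too. Replicate 2 held 159893 more microRNA gene counts than replicate 1, the net of 357 genes with more counts, 585303 in sum, and 326 genes with fewer, 425410 in sum. Mir149 had 74371 more counts, 12.7% of the sum of the higher counts. That difference was larger for 3 genes, Mir126a, Mirlet7d and Mir22, named after their values were seen. With Mir149 left out of the totals, an alternative also chosen after seeing the data, the log2 ratio of Mir139 was -0.06.

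**Figure D4:**
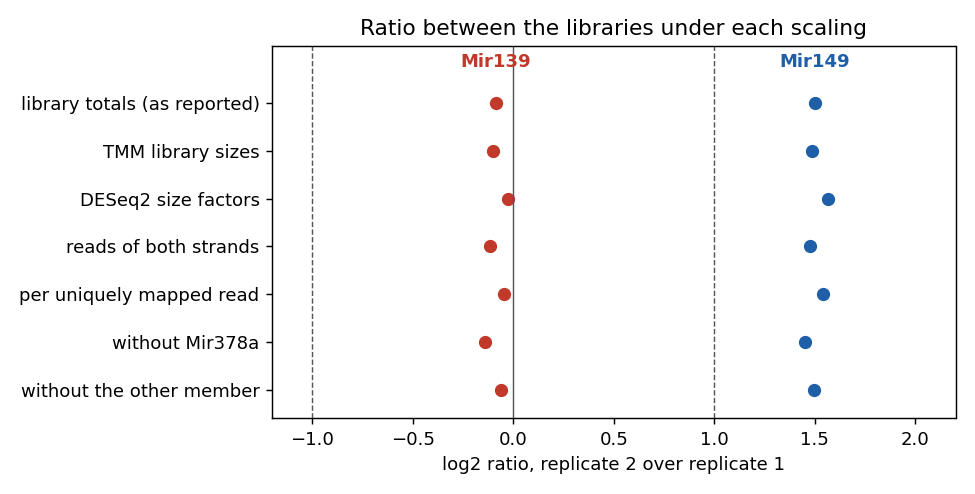
log2 ratio of replicate 2 over replicate 1 (horizontal axis) for Mir139 (red) and Mir149 (blue) under 7 ways of scaling the counts, 1 per line, with dashed lines at a 2-fold difference. Mir139 runs from -0.14 to -0.03 and stays below 0, and Mir149 runs from 1.45 to 1.56 and stays past the upper line.

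Every counted read of both genes was on the strand of the gene. The opposite-strand count was 0 for Mir139 and for Mir149 in replicate 1 and in replicate 2. For Mir139, a count of 0 allows an opposite-strand share of up to 0.00200% in replicate 1 and 0.00204% in replicate 2, and for Mir149 of up to 0.00789% and 0.00267%. The annotation has no gene on the opposite strand of either hairpin, and the counts without regard to strand were equal to those on the gene strand. Among the 20 most abundant genes this equality held for 14. It failed for Mir378a, Mir191 and Mir30e, which have no count without strand, for Mir126a, which keeps 15 and 29 reads there, and by a few reads for Mirlet7b and Mir30d. Because such genes drop out, Mir139 ranked 8 and Mir149 ranked 12 when strand was ignored. Of the 337 detected genes, 308 had no opposite-strand count in either library.

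The pair was then set beside a list of 43 other microRNA genes named as intronic from general knowledge. Of these, 42 were detected, and Mir103-1, with 7 and 5 counts, was not. Their mean levels ran from 2.94 to 132638 CPM with a median of 379 CPM, beside 39880 CPM for Mir139 and 19956 CPM for Mir149. The highest were Mir378a at 132638 CPM, in the metabolic coactivator gene Ppargc1b, Mir23b at 54223 CPM and Mir26b at 28348 CPM. The list is not complete, and by GENCODE M21 its 42 detected genes comprise 33 that are intronic in a coding gene on their strand, 6 that overlap an exon of such a gene, and 3 that no such gene spans. The annotation places 121 detected microRNA genes in such introns, the members included. Those that overlap an exon of any transcript of such a gene are left out, Mir126a at 61220 CPM and Mir22 at 29551 CPM among them. Among these 121, Mir139 ranked 4 by mean level, after Mir378a, Mirlet7g at 69037 CPM in Wdr82, and Mir23b, and Mir149 ranked 6, with Mir26b between them. Of the 42 genes of the list, 3 were more than 2 times higher in replicate 2 (Mir186, Mir208a and Mir208b) and 5 in replicate 1 (Mir26a-1, Mir140, Mir16-2, Mir93 and Mir342), which is 19.0% beside 19.3% of all detected genes. The median size of their log2 ratio was 0.41, beside 0.44 over all detected genes. Listed genes with numbered copies, such as Mir26a-1, Mir103-1 and Mir16-2, can lose reads that map to several places. Their levels and ratios, and the median level of the list, are uncertain for that reason.

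The libraries were alike in depth. Replicate 1 held 10362589 reads, of which 35.2% were on the strand of a microRNA gene, and replicate 2 held 10483233 reads, of which 36.4% were. Reads mapped to several places were 48.0% and 46.4%. Marker genes of cell types are given for both libraries. The 7 heart muscle genes, 6 of them detected and none at 0 in both libraries, summed to 4032 CPM in the first replicate and 6942 CPM in the second. The median log2 ratio of the 6 was 0.01, and most of the difference in the sum was that of Mir208a, while Mir499 was at 2601 and 2507 CPM and Mir1a-2 at 68.8 and 39.4 CPM. The low counts of the miR-1 and miR-133a genes among them are uncertain, because copies share their mature strands. The endothelial gene Mir126a was at 52212 and 70228 CPM. The smooth muscle genes Mir143 and Mir145a, both detected, summed to 54611 and 53284 CPM. Within that sum Mir143 was at 49081 and 50331 CPM and Mir145a at 5530 and 2953 CPM. All 4 leukocyte genes were detected and summed to 8970 and 7190 CPM, and all 3 erythroid genes to 3222 and 2960 CPM. Each of the 4 leukocyte genes was lower in replicate 2, and Mir142 had the largest ratio, at 1091 and 428 CPM. The erythroid genes went different ways, with Mir451a at 1925 and 1217 CPM, Mir486 at 885 and 1267 CPM and Mir144 at 411 and 477 CPM. Of the skeletal muscle genes, both detected, Mir206 was at 37.0 and 303 CPM and Mir133b at 6.03 and 5.25 CPM, a sum of 43.0 and 308 CPM. The liver gene Mir122 was at 142 and 97.9 CPM. None of the 6 neuronal genes was detected in both libraries, and 4 of them, the Mir124a genes and Mir9-2, were at 0. The sum of the 6 was 27.9 and 0.525 CPM. That difference was that of Mir9-3, with 101 counts in replicate 1 and 1 in replicate 2, while Mir9-1 had 1 in each. The part of any of these in the difference of Mir149 was not tested, and in a bulk sample fewer cells of a type and less RNA per cell cannot be told apart.

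The base composition of the hairpins was also set beside the ratio between the libraries. Over the 288 detected genes with a hairpin in the table (85.5% of 337), Spearman's rho of G and C content with the log2 ratio was 0.04. Over the 53 with a mean of at least 1000 CPM (81.5% of 65) it was 0.20. These genes share their libraries and are not independent replicates, so the values are a description.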

How the data were processed

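Reads per microRNA gene were deposited by the authors as raw counts, 1 file without header per library, made on mm10 with GENCODE M21 per the deposited accompanying text. The aligner is not given in the sources used here. Of the 3 count columns, the same-strand column was used. The 4 rows that name no gene, 64.8% of the reads in replicate 1 and 63.6% in replicate 2, were left out of library totals. All 2202 identifiers matched GENCODE M21. CPM, ratios and intervals were computed in Python 3.11.15 with scipy 1.17.1, folding energies with RNAfold 2.7.2, and alternative scalings with edgeR 4.0.16 (TMM) and DESeq2 1.42.0 in R 4.3.3. The ratio step was checked on simulated data. A floor of 3 counts is 0.822 CPM in replicate 1 and 0.787 CPM in replicate 2.

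No test was made. Named are both members, the 3 genes on each side of each in mean CPM, the 3 nearest in ratio at 1000 CPM or more, genes sharing a seed or lying within 10 kb, marker genes, and the 3 highest of the intronic list. The places of all detected microRNA genes in coding genes were read from GENCODE M21 after the values were seen. Other genes were named after their values were seen. The members and lists were chosen with earlier results of these data known.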

Additional observations from a re-analysis of the deposited data

How the results depend on the processing

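The level of Mir139 moved with what it was divided by. It was 51729 CPM when reads were counted without regard to strand, 35156 per 1000000 uniquely mapped reads and 46018 CPM with Mir378a left out of the totals. It was 39890 CPM with TMM and 39854 CPM with DESeq2 scaling. The level of Mir149 moved likewise, to 25766 CPM without regard to strand, 17713 per 1000000 uniquely mapped reads and 22819 CPM without Mir378a. It was 19914 CPM with TMM and 20160 CPM with DESeq2 scaling. All of these lie within its SD of 13491 CPM, which is far larger than the 1714 CPM of Mir139. The log2 ratio of Mir139 was -0.11 without regard to strand, -0.049 per uniquely mapped read, -0.14 without Mir378a, -0.10 with TMM, -0.026 with DESeq2 and -0.060 without Mir149. That of Mir149 was 1.48, 1.54, 1.45, 1.49 and 1.56 in the same first 5 settings, and 1.50 without Mir139. Its size was over 1 in each. A pseudocount of 1 or 0 changed neither ratio at 2 decimals. Without replicate 1 or replicate 2 the remaining level was 38668 or 41092 CPM for Mir139 and 29495 or 10416 CPM for Mir149. The count of genes differing by more than 2 times was 44 to 67 under 5 alternatives, with 238 to 337 genes tested. As a share of the genes tested this was 18.5% to 19.9%, beside 19.3% in the main setting. With no filter beyond 1 count it was 196 of 722 (27.1%). The median ratio of the detected genes shifted by -0.01 with TMM and 0.06 with DESeq2. No paired analysis was possible because the libraries form a single group. Depth does not limit the members, whose counts are far above the floor.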
